A study of Mus musculus with 12 samples.

Results

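The Schlafen genes were followed in bone marrow-derived macrophages (BMDMs) of control mice and of mice with a myeloid deletion of *Trsp*, before and after lipopolysaccharide (LPS). The genes were *Slfn1*, *Slfn2*, *Slfn4*, *Slfn5*, *Slfn8* and *Slfn9*, taken as the probe sets that carry one of these symbols and no other. They were 6 of the 18193 genes analysed and 10 of 45037 probe sets, with 3 probe sets for *Slfn5*, 2 each for *Slfn1* and *Slfn9*, and 1 for each of the others. All cells came from female C57BL/6 mice in which both copies of *Trsp*, the gene of the selenocysteine tRNA that selenoprotein synthesis requires, were floxed. Control mice lacked Cre (Trspfl/fl-LysM-Cre-/-), and *ΔTrsp*M mice carried 1 LysM-Cre allele (Trspfl/fl-LysM-Cre+/-), which drives deletion in myeloid cells. Bone marrow was cultured for 7 days with M-CSF, and the BMDMs then received LPS for 4 h or no stimulus. Each of the 4 groups held 3 arrays (GeneChip Mouse 430 2.0), labelled as biological replicates but not as separate mice, so p-values measure the spread between these samples. *Trsp* itself and the extent of its deletion were not analysed here.

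Schlafen genes take their name from the German word for sleep, because *Slfn1* was found as a gene that holds thymocytes in a non-dividing state. They are a rodent-expanded family that lies in one cluster, and many members are induced by type I interferon, the antiviral cytokine that macrophages secrete after LPS reaches Toll-like receptor 4. The secreted interferon signals back through its receptor, the kinases Jak1 and Tyk2 and the factors Stat2 and Irf9, which take part in binding the interferon-stimulated response element (ISRE) in promoters. Short Schlafen proteins (*Slfn1*, *Slfn2*) hold little beyond the core Schlafen domain, *Slfn4* belongs to an intermediate class, and long proteins (*Slfn5*, *Slfn8*, *Slfn9*) add a helicase-like domain.

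All 6 genes lie on mouse chromosome 11, in the order *Slfn5*, *Slfn9*, *Slfn8*, *Slfn2*, *Slfn1* and *Slfn4* in the RefSeq annotation of GRCm38.p6. Promoter windows of 300 bases, from 250 before to 50 after the annotated start, were read from RefSeq for all 6. They are shown for the 3 genes whose window matched an ISRE and for *Slfn1*, whose window held no match. Each is written 5′ to 3′ on the strand of its gene, and capitals mark the ISRE match. The windows lie at chr11:82951852-82952151 (plus strand) for *Slfn5*, chr11:83020761-83021060 (minus strand) for *Slfn8*, chr11:82991781-82992080 (minus strand) for *Slfn9* and chr11:83116570-83116869 (plus strand) for *Slfn1*.
Slfn5: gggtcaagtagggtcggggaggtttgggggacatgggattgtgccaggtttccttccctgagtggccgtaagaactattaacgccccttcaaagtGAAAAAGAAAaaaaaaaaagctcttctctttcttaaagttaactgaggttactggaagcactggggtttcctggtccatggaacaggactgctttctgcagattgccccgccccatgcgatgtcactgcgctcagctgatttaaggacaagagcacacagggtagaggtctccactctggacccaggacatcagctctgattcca
Slfn8: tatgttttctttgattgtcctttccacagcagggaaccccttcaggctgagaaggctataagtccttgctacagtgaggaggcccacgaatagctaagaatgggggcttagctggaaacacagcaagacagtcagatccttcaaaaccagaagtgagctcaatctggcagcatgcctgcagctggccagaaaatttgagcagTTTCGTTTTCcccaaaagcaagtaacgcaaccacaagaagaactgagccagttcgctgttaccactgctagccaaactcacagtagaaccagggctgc
Slfn9: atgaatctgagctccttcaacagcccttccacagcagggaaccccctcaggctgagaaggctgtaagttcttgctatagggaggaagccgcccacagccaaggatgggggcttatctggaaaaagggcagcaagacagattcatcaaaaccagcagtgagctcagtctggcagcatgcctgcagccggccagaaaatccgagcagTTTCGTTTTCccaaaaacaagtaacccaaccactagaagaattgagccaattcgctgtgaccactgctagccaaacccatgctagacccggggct
Slfn1: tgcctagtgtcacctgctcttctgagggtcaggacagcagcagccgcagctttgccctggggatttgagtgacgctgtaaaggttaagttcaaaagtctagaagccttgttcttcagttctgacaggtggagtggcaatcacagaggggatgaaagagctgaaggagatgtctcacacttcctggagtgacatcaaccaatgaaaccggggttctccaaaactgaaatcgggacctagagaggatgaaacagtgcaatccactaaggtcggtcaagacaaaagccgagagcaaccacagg

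The ISRE was searched on both strands as GAAA, any 2 bases and GAAA. It was found in the windows of 3 of the 6 Schlafen genes, against 3.99% of 27025 genes with a window. In *Slfn5* it began at position -155, counting back from the annotated start, and read along the gene. In *Slfn9* and *Slfn8* it began at positions -45 and -48 and read on the opposite strand. A second annotated start of *Slfn8* placed the same match at position -136. The gamma-activated site TTCNNNGAA was found in 0 of the 6 windows (9.55% of all genes), as was the NF-κB motif, GGG, any 2 bases and TTTCC (1.89% of all genes). The *Slfn8* and *Slfn9* windows, of adjacent protein-coding genes in the same orientation, were identical at 246 of 295 aligned bases (83.4%). The other 14 pairs of windows were identical at 48.4% to 58.3% of aligned bases. A match describes these letters in this window and was not tested as a binding site.

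The deposited values are linear signals that the authors normalized. Their mean per array still ran from 199.7 to 860.9, so signals were quantile-normalized, 16 was added and log2 was taken; values below are log2 signals on this scale. A level can be compared between arrays for one probe set, but not between probe sets. Macrophage markers were high in all groups, with a summed signal of 80400 to 96810 over 13 markers in the 12 arrays. The array of *ΔTrsp*M LPS replicate 2 was dim, with 47.7% of probe sets at a deposited signal under 16 against 16.1% to 28.8% on the others. Unstimulated control replicate 2 stood apart in Schlafen and other interferon-stimulated genes, so the main Schlafen results that rest on it are given with and without it. Medians over genes and nearest-gene correlations are given only with it. In bulk RNA, fewer cells that express a gene and less RNA in each cell cannot be told apart.

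The first question was how each Schlafen gene responded to LPS in BMDMs of each genotype. All 6 genes rose in both genotypes, by 2.35-fold for *Slfn2* to 27.4-fold for *Slfn1* in control cells and by 2.82-fold for *Slfn2* to 55.3-fold for *Slfn1* in *ΔTrsp*M cells. By limma with Benjamini-Hochberg adjustment over all 18193 genes, 6 of 6 were higher at an adjusted p under 0.05 in control cells, where 7.09% of all genes were, and 6 of 6 in *ΔTrsp*M cells, where 7.29% were. Every LPS array lay above every unstimulated array of the same genotype for all 6 genes, a separation seen in 14.7% of all genes in control and 14.8% in *ΔTrsp*M cells. The median log2 fold change of the 6 genes was 3.27 in control and 3.84 in *ΔTrsp*M cells, against -0.05 and -0.03 over all genes.

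**Figure D1:**
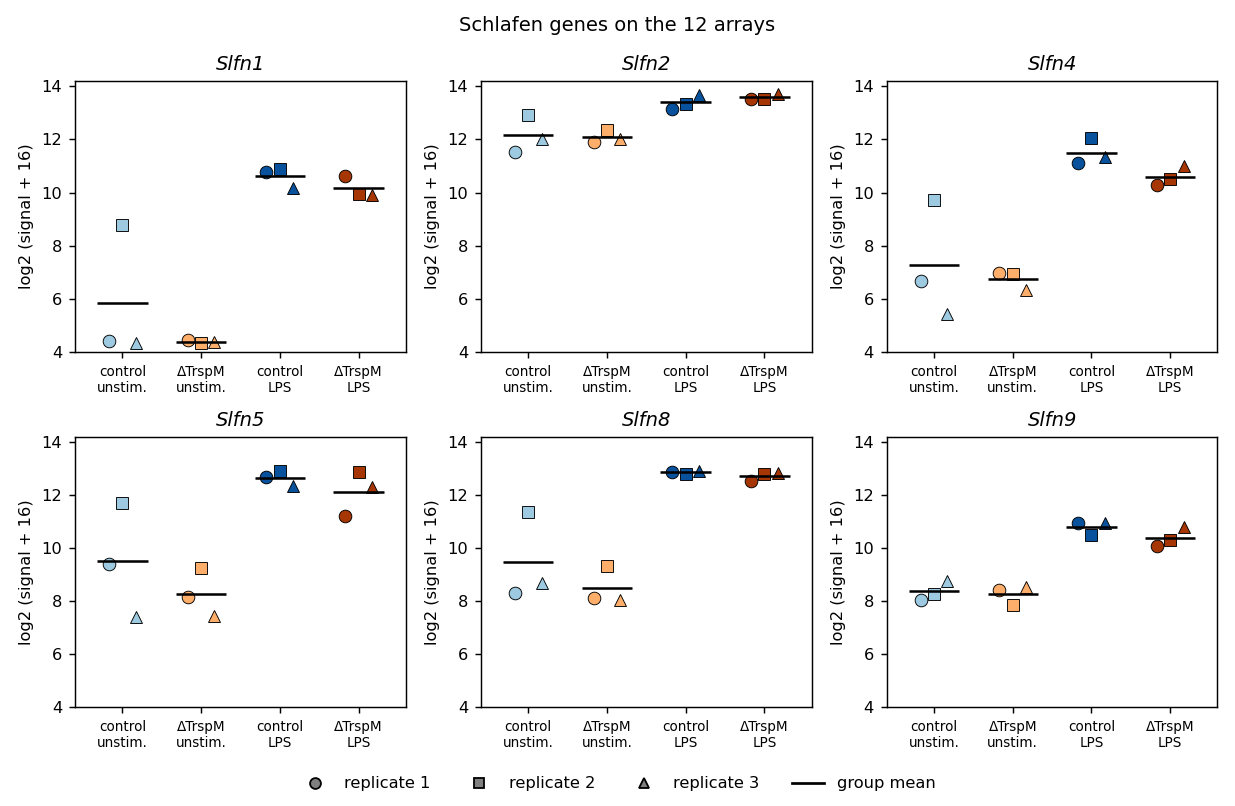
Log2 (signal + 16) of the 6 Schlafen genes on each of the 12 arrays, by genotype and stimulus. Symbols mark replicates 1, 2 and 3 and bars the group means. In each panel the LPS arrays lie above the unstimulated arrays of the same genotype, and the unstimulated control square (replicate 2) lies far above its group in *Slfn1*, *Slfn4*, *Slfn5* and *Slfn8*.

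*Slfn1*, the founding short Schlafen and a brake on thymocyte growth, went from the floor of the array to a clear signal. Its log2 signal in unstimulated control replicates 1 to 3 was 4.41, 8.76 and 4.32, and in unstimulated *ΔTrsp*M replicates 4.43, 4.32 and 4.36. In LPS arrays it read 10.77, 10.87 and 10.18 in control and 10.62, 9.95 and 9.91 in *ΔTrsp*M cells. Of the unstimulated arrays, 5 lay together at the floor and control replicate 2 lay alone above them. On those 5 arrays the deposited signal was 2.9 to 7.3, under the 16 that was added, so the fold change depends on that offset. The log2 fold change was 4.78 (SE 0.91, limma adjusted p = 0.00455) in control and 5.79 (SE 0.91, limma adjusted p = 0.00168) in *ΔTrsp*M cells, ranking 51 and 27 among the rises of all genes. Over all alternatives it ran from 2.12 to 6.24 in control and from 2.88 to 7.63 in *ΔTrsp*M cells. The second *Slfn1* probe set was dim on all arrays and differed by -0.54 and -0.02 (limma adjusted p = 0.411 and 0.982 over all probe sets).

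*Slfn2*, the short Schlafen that keeps T cells and monocytes quiescent, was bright before LPS. Unstimulated arrays read 11.51, 12.93 and 12.02 in control and 11.91, 12.37 and 12.01 in *ΔTrsp*M cells. LPS arrays read 13.15, 13.34 and 13.68 in control and 13.53, 13.54 and 13.71 in *ΔTrsp*M cells. Unstimulated control replicate 2 came within a short distance of the lowest LPS array, and the groups still did not overlap. LPS raised it by 1.24 on the log2 scale (SE 0.32, limma adjusted p = 0.0217) in control and 1.50 (SE 0.32, limma adjusted p = 0.00875) in *ΔTrsp*M cells. The call in control cells was lost without unstimulated control replicate 1 or 3 or control LPS replicate 2 or 3 (adjusted p = 0.0828, 0.075, 0.0558 and 0.0732 in the order given) and in the limma fit on only the arrays compared (adjusted p = 0.0865). With no scaling of the arrays it was lost in control (adjusted p = 0.183) and in *ΔTrsp*M cells (adjusted p = 0.115).

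*Slfn4*, the intermediate Schlafen best known from myeloid cells, followed a course like that of *Slfn1*. Unstimulated arrays read 6.67, 9.73 and 5.43 in control and 6.97, 6.92 and 6.35 in *ΔTrsp*M cells. LPS arrays read 11.11, 12.07 and 11.34 in control and 10.27, 10.52 and 11.01 in *ΔTrsp*M cells. The unstimulated control arrays spread widely, with replicate 2 highest, while the unstimulated *ΔTrsp*M arrays lay close together. Its log2 fold change was 4.23 (SE 0.82, limma adjusted p = 0.00493) in control and 3.85 (SE 0.82, limma adjusted p = 0.00888) in *ΔTrsp*M cells, or 18.8-fold and 14.5-fold. A probe set shared by *Slfn4* and the adjacent *Slfn3*, not counted here as a Schlafen member because of its double name, rose by 3.48 and 3.11 (limma adjusted p = 0.00253 and 0.00514 over all probe sets).

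*Slfn5*, a long nuclear Schlafen that responds to interferon, varied widely among unstimulated cultures of both genotypes. Unstimulated arrays read 9.40, 11.71 and 7.39 in control and 8.17, 9.25 and 7.44 in *ΔTrsp*M cells. LPS arrays read 12.69, 12.91 and 12.35 in control and 11.20, 12.86 and 12.29 in *ΔTrsp*M cells. Replicate 2 was the highest array in all 4 groups and replicate 3 the lowest in both unstimulated groups. Its log2 fold change was 3.15 (SE 0.88, limma adjusted p = 0.0328) in control and 3.83 (SE 0.88, limma adjusted p = 0.0133) in *ΔTrsp*M cells, 8.87-fold and 14.3-fold. In control cells the call was lost without unstimulated replicate 1 or 3 (adjusted p = 0.0915 and 0.0997) and without LPS replicate 1, 2 or 3 (0.0788, 0.0975 and 0.0617). It was also lost with 1 in place of 16 added (adjusted p = 0.0523) and in the limma fit on only the arrays compared (adjusted p = 0.0865). In *ΔTrsp*M cells it was lost without unstimulated replicate 3 or LPS replicate 2 (adjusted p = 0.0538 and 0.0516). The other 2 *Slfn5* probe sets gave 2.57 and 3.02 in control cells (limma adjusted p = 0.0475 and 0.131 over all probe sets), with overlapping groups. In *ΔTrsp*M cells they gave 3.39 and 3.52 (limma adjusted p = 0.0136 and 0.0781 over all probe sets), with no overlap.

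*Slfn8* is a long Schlafen with a helicase-like domain, and its control LPS arrays lay close together. Unstimulated arrays read 8.31, 11.38 and 8.70 in control and 8.12, 9.32 and 8.05 in *ΔTrsp*M cells. LPS arrays read 12.86, 12.81 and 12.90 in control and 12.54, 12.79 and 12.85 in *ΔTrsp*M cells. The SD of the 3 control arrays was 1.67 before LPS and 0.05 after it. Its log2 fold change was 3.40 (SE 0.65, limma adjusted p = 0.00456) in control and 4.23 (SE 0.65, limma adjusted p = 0.00142) in *ΔTrsp*M cells, 10.5-fold and 18.8-fold.

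*Slfn9*, the long paralog whose promoter window is nearest in sequence to that of *Slfn8*, did not share the spread of the unstimulated control arrays. Unstimulated arrays read 8.06, 8.29 and 8.76 in control and 8.41, 7.85 and 8.54 in *ΔTrsp*M cells. LPS arrays read 10.96, 10.51 and 10.95 in control and 10.07, 10.29 and 10.79 in *ΔTrsp*M cells. All unstimulated arrays lay between 7.85 and 8.76, with control replicate 2 in the middle of its group, and no LPS array came near them. LPS raised it by 2.44 on the log2 scale (SE 0.28, limma adjusted p = 0.000207) in control and 2.11 (SE 0.28, limma adjusted p = 0.000561) in *ΔTrsp*M cells, 5.41-fold and 4.33-fold. The second *Slfn9* probe set rose by 1.39 and 1.56 (limma adjusted p = 0.00941 and 0.00555 over all probe sets). With no scaling the calls were lost in control (adjusted p = 0.0512) and *ΔTrsp*M cells (adjusted p = 0.323). How far probes for such close paralogs detect each other's RNA was not tested.

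**Figure D2:**
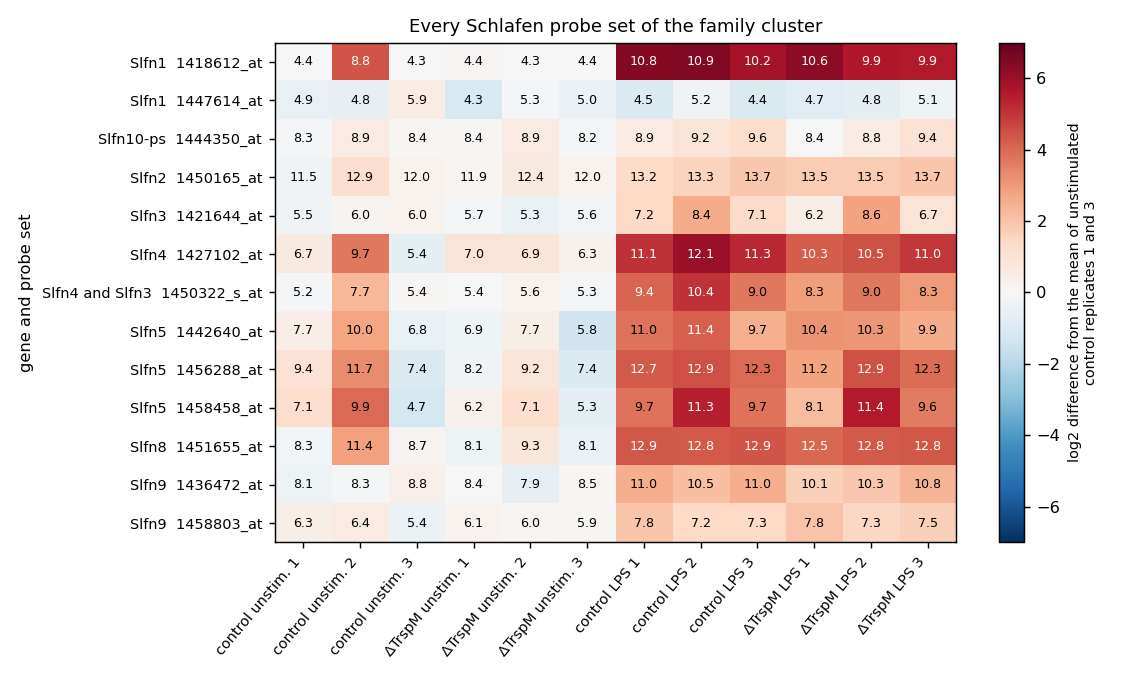
Log2 (signal + 16) of the probe sets named for a Schlafen gene of the cluster on the 12 arrays (numbers), coloured by the difference from the mean of unstimulated control replicates 1 and 3. The 10 probe sets of the 6 genes are shown with those of *Slfn3*, *Slfn10-ps* and the shared *Slfn4* and *Slfn3* probe set, and the antisense *Slfn5os* is not shown; the second *Slfn1* probe set stays pale after LPS, and the column of unstimulated control replicate 2 is coloured for *Slfn1*, *Slfn4*, *Slfn5* and *Slfn8* but not for *Slfn9*.

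Beside the 6 genes, 3 further Schlafen or Schlafen-like genes were measured, and 0 of them passed the test in either genotype. *Slfn3*, the neighbour of *Slfn4*, differed by 1.71 (limma adjusted p = 0.0523) in control and 1.68 (limma adjusted p = 0.056) in *ΔTrsp*M cells, with all LPS arrays above all unstimulated arrays. The pseudogene *Slfn10-ps* differed by 0.70 and 0.34, and *Slfnl1*, a Schlafen-like gene, by -0.44 and -0.29. The antisense transcript *Slfn5os* was near the floor, with group means of 4.28 to 4.62, and differed by 0.15 and 0.31 (limma adjusted p = 0.738 and 0.403 over all probe sets). Of 14 measured genes that flank the cluster, 3 rose in control and 2 in *ΔTrsp*M cells, where 7.09% and 7.29% of all genes did. They were *Rffl*, a ubiquitin ligase (3.31 and 3.03), the chemokine *Ccl5* (5.27 and 6.23) and, in control cells, *Tmem132e* (1.95).

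Unstimulated control replicate 2 lay above the rest of its group in 5 of the 6 Schlafen genes. Its log2 signal exceeded the higher of the other 2 unstimulated control arrays by 4.35 for *Slfn1* (20.3-fold), 3.07 for *Slfn4* (8.38-fold), 2.68 for *Slfn8* (6.40-fold), 2.31 for *Slfn5* (4.96-fold) and 0.91 for *Slfn2* (1.88-fold). For *Slfn9* this gap was -0.47. On the other 2 arrays the deposited *Slfn1* signal was 6.3 and 4.5, under the 16 that was added, so the size and rank of its gap depend on that offset. The *Slfn1* gap ranked 5 among 18193 genes, *Slfn4* 28, *Slfn8* 44, *Slfn5* 65 and *Slfn2* 485. A gap of at least 1 was found in 4 of the 6 Schlafen genes and in 2.17% of all genes.

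Genes of the interferon pathway and of NF-κB stood high on the same array. Of 37 interferon-stimulated genes other than Schlafen genes, 31 (83.8%) had a gap of at least 1, and their mean log2 signal on that array was 11.43 against 8.68 and 8.77 on the other unstimulated control arrays. The same held for 11 of 21 NF-κB primary response genes (52.4%), 5 of 16 interferon receptors and signalling genes (31.2%) and 3 of 9 inhibitors of interferon signalling (33.3%). Type I interferon ligands had 0 of 9 genes with such a gap. So had T cell (0 of 10), B cell (0 of 9), NK cell (0 of 7), neutrophil (0 of 11), dendritic cell (0 of 9) and stromal markers (0 of 12) and proliferation genes (0 of 17), and 1 of 13 macrophage markers had one. The ligands were near the floor, with list means of 4.99 to 5.36 on the unstimulated arrays. Of the 9 ligands, 2 were under a signal of 16 on all arrays, so a small rise could be missed. Stromal markers and proliferation genes had median gaps of -2.66 and -2.50, with unstimulated control replicate 2 lying below the others of its group. Replicate 2 had the lowest mean of both lists in all 4 groups. It also had the highest mean of interferon-stimulated and of NF-κB genes in all 4 groups. In unstimulated *ΔTrsp*M cells it read 9.036 against 8.624 and 8.455 for interferon-stimulated genes. For NF-κB genes it read 9.672 there against 9.063 and 9.065. The actin 3′ to 5′ ratio of unstimulated control replicate 2 was 1.05, that of the other unstimulated control arrays (1.05 and 1.06). The part of any of these in the Schlafen values was not tested.

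**Figure D3:**
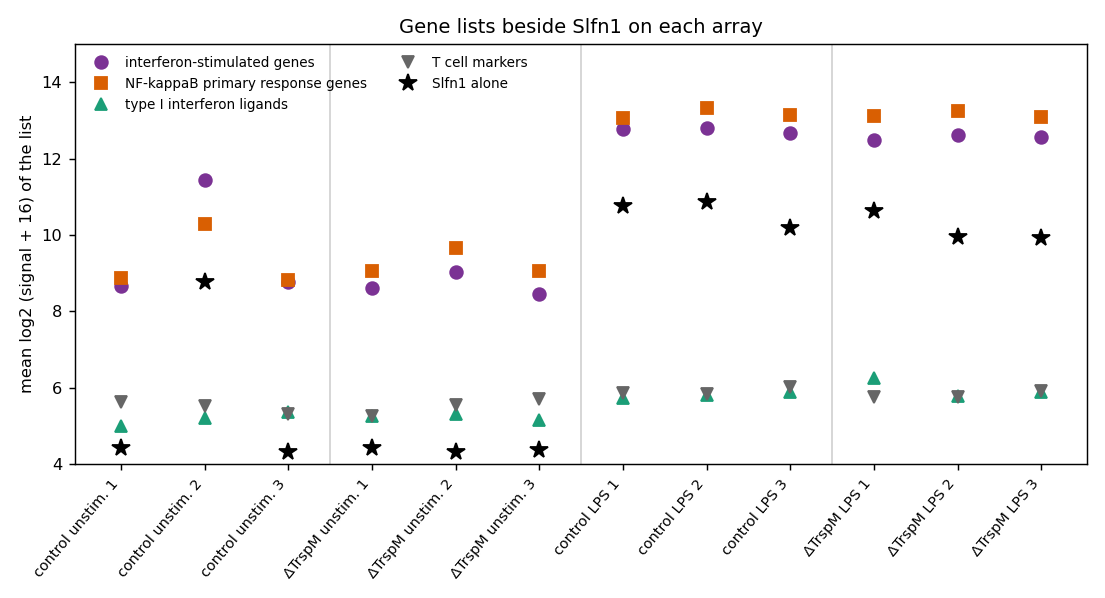
Mean log2 (signal + 16) on each of the 12 arrays of interferon-stimulated genes, NF-κB primary response genes, type I interferon ligands and T cell markers, with *Slfn1* alone as stars. Unstimulated control 2 has an interferon-stimulated mean of 11.43 and a *Slfn1* level of 8.76, above the other unstimulated arrays, while the ligands and T cell markers there lie among the other unstimulated arrays. The ligands are near the floor on the unstimulated arrays.

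Without unstimulated control replicate 2 the control response to LPS was steeper in 5 of the 6 genes. That array was the highest of its group in those 5 genes, so leaving it out had to raise their fold changes. The log2 fold change became 6.24 for *Slfn1* (75.7-fold), 5.46 for *Slfn4* (43.9-fold), 4.35 for *Slfn8* (20.5-fold), 4.25 for *Slfn5* (19.1-fold) and 1.62 for *Slfn2*, and 2.40 for *Slfn9*. All 6 were called higher, where 6.62% of all genes were. The SE of *Slfn1* went from 0.91 to 0.28 and that of *Slfn8* from 0.65 to 0.35. Leaving out unstimulated control replicate 3 in its place lowered the value to 4.02 for *Slfn1*, 3.31 for *Slfn4* and 2.09 for *Slfn5*, and leaving out replicate 1 lowered it to 2.82 for *Slfn8* and 0.91 for *Slfn2*.

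**Figure D4:**
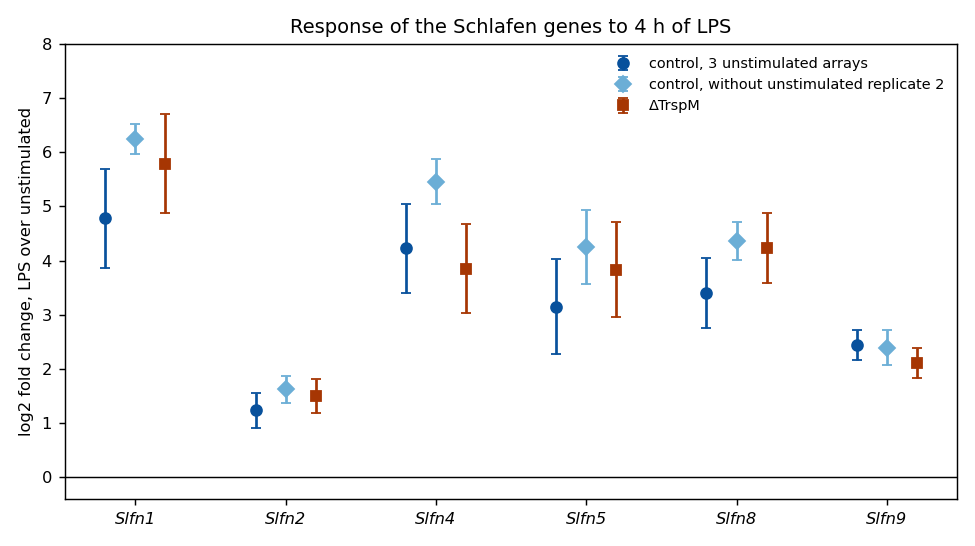
Log2 fold change of the 6 Schlafen genes, LPS over unstimulated, in control BMDMs with all 3 unstimulated arrays, in control BMDMs without unstimulated replicate 2, and in *ΔTrsp*M BMDMs. Points are limma estimates and bars 1 SE either side; every point lies above 0, and leaving out the replicate moves *Slfn1* from 4.78 to 6.24 and *Slfn9* only from 2.44 to 2.40.

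The type I interferon pathway, known to induce many Schlafen genes, was described from lists of its ligands, signalling genes, inhibitors and targets. Its part in the Schlafen values here was not tested. Among 9 type I interferon ligands, 2 rose in each genotype, *Ifnb1*, the first interferon made after LPS (4.02 in control and 4.04 in *ΔTrsp*M cells), and *Ifna2* (2.27 and 1.96). Of 16 receptors and signalling genes, 7 rose in control and 8 in *ΔTrsp*M cells, among them the transcription factor *Irf1* (3.05 and 3.48) and the kinases *Jak2* (2.63 and 2.60) and *Tyk2* (1.44 and 1.69). Without unstimulated control replicate 2, 9 rose in each genotype. That array was singled out for its high Schlafen and interferon-stimulated values, so leaving it out favoured more calls. The receptor chains *Ifnar1* (0.02 and 0.02) and *Ifnar2* (0.31 and 0.23) did not pass the test. Of 9 inhibitors, 4 and 5 rose, among them *Socs1* (5.17 and 5.16) and *Socs3* (5.66 and 4.87), which block cytokine receptor kinases, and *Ptpn2* (1.00 and 0.66), a phosphatase of Jak and Stat proteins. None of these lists held a gene that fell.

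Of 37 interferon-stimulated genes, 31 rose in control and 36 in *ΔTrsp*M cells, with medians of 2.94 and 3.82 on the log2 scale. Without unstimulated control replicate 2, 37 rose in each genotype, where 6.62% of all genes rose in control cells. That array was singled out for its high values in such genes, so leaving it out favoured more calls. It enters the *ΔTrsp*M contrast only through the pooled spread. Examples were the GTPase *Gbp3* (4.78 and 5.38), the chemokine *Cxcl9* (6.56 and 6.67) and *Samhd1* (2.16 and 2.28), which depletes nucleotides from infecting viruses. Of 21 NF-κB primary response genes, 20 rose in each genotype, with medians of 3.52 and 3.38, among them *Ccl4* (4.36 and 4.54), *Ptgs2* (5.16 and 4.26) and *Il1a* (7.60 and 7.63). The Schlafen medians, given above for the same contrasts, were 3.27 and 3.84. Because Schlafen proteins were first described in T cells, T cell markers were read beside them. The summed signal of 10 T cell markers was 360.1 to 638.2 on unstimulated and 951.6 to 1433 on LPS arrays. Of these markers 1 rose, *Cd247*, the T cell receptor zeta chain (4.49 and 4.45), and 1 fell, *Cd28* (-1.65 and -1.76), while 1 of the 10, *Cd3d*, was under a signal of 16 on all arrays.

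The second question was whether loss of selenoproteins changed the Schlafen genes. No Schlafen gene passed the test between genotypes under either stimulus. In unstimulated cells *ΔTrsp*M minus control was -1.46 for *Slfn1* (95% interval -3.46 to 0.54), -0.06 for *Slfn2* (-0.75 to 0.64), -0.53 for *Slfn4* (-2.33 to 1.27), -1.22 for *Slfn5* (-3.15 to 0.72), -0.96 for *Slfn8* (-2.39 to 0.46) and -0.10 for *Slfn9* (-0.71 to 0.51). By limma 0 of 6 passed, with 0 at an unadjusted p under 0.05 and 0 by the methods' t-test, and 0% of all genes passed. All *ΔTrsp*M arrays lay below all control arrays in 3.17% of all genes and in 0 of the 6 Schlafen genes. Without unstimulated control replicate 2 the differences became 0.01, 0.33, 0.70, -0.11, -0.01 and -0.14 in the same order of genes, so the sign turned for *Slfn1*, *Slfn2* and *Slfn4*.

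After LPS the difference was -0.45 for *Slfn1* (95% interval -2.45 to 1.56), 0.20 for *Slfn2* (-0.49 to 0.90), -0.91 for *Slfn4* (-2.71 to 0.89), -0.53 for *Slfn5* (-2.47 to 1.41), -0.13 for *Slfn8* (-1.55 to 1.29) and -0.42 for *Slfn9* (-1.03 to 0.19). By limma 0 of 6 passed (adjusted p = 0.939 to 0.994), with 0 at an unadjusted p under 0.05 and 0 by the methods' t-test, and 0.011% of all genes passed. *Slfn4* was the member in which all 3 *ΔTrsp*M arrays (10.27 to 11.01) lay below all 3 control arrays (11.11 to 12.07), a separation found in 3.77% of all genes. The lowest exact p that 3 arrays against 3 allow is 0.1. In the fit without unstimulated control replicate 2, which is not part of this comparison but enters the pooled spread, the *Slfn4* interval was -1.74 to -0.07 (unadjusted p = 0.0356, limma adjusted p = 0.836). That array was singled out for its high Schlafen values, so this interval and p-value cannot serve as a test.

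Averaged over both stimuli, the difference was -0.95 for *Slfn1*, 0.07 for *Slfn2*, -0.72 for *Slfn4*, -0.87 for *Slfn5*, -0.55 for *Slfn8* and -0.26 for *Slfn9*, and 0 of 6 passed (limma adjusted p = 0.963 to 0.984), where 0.022% of all genes did. The interaction, the LPS response of *ΔTrsp*M cells minus that of control cells, was 1.01 for *Slfn1*, 0.26 for *Slfn2*, -0.38 for *Slfn4*, 0.69 for *Slfn5*, 0.83 for *Slfn8* and -0.32 for *Slfn9*. By limma 0 of 6 passed, 0 at an unadjusted p under 0.05, and 0% of all genes passed. The methods' t-test was not run on these 2 contrasts. Without unstimulated control replicate 2 the interactions of *Slfn1*, *Slfn5* and *Slfn8* were -0.46, -0.42 and -0.12. For *Slfn4* the interaction without that array was -1.60 (SE 0.56, unadjusted p = 0.017, limma adjusted p = 0.9998). The array was singled out for its high values in *Slfn4* and other Schlafen genes, so this p-value cannot serve as a test of the interaction. The comparisons share arrays, so their values are set side by side and not counted against each other.

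**Figure D5:**
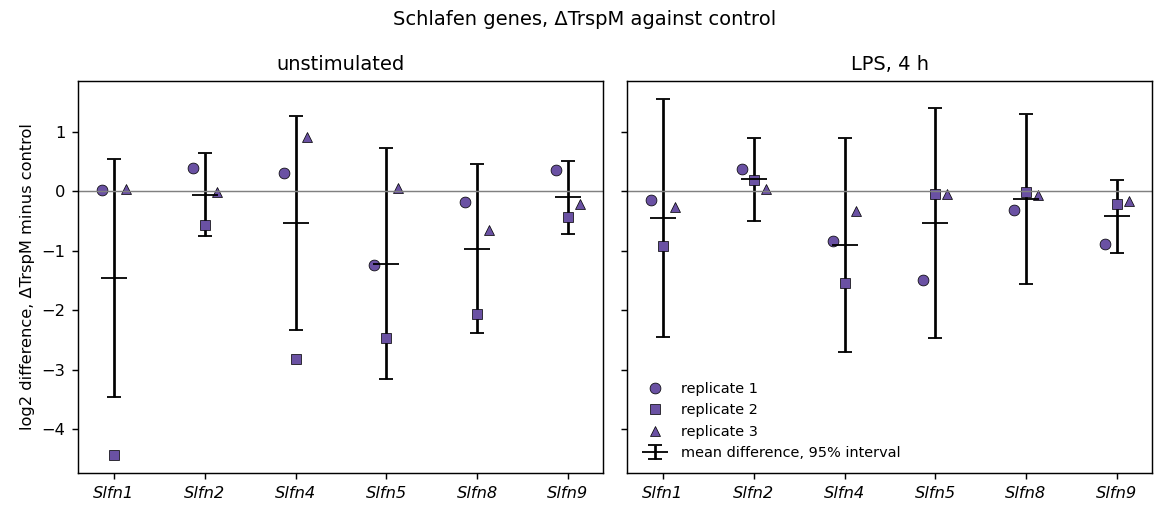
Log2 difference, *ΔTrsp*M minus control, of the 6 Schlafen genes in unstimulated (left) and LPS-stimulated (right) BMDMs. Symbols are the differences between same-numbered replicates and bars the mean with its 95% interval from the unpaired limma fit. All 12 intervals include 0, and unstimulated replicate 2 lies far below 0 for *Slfn1*, *Slfn4*, *Slfn5* and *Slfn8*.

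Same-numbered arrays showed where the unstimulated differences lay. For *Slfn1* the difference was 0.02, -4.44 and 0.05 in replicates 1, 2 and 3, and for *Slfn4* it was 0.30, -2.82 and 0.92. For *Slfn8* it was -0.19, -2.06 and -0.65, and for *Slfn5* -1.23, -2.46 and 0.05. Replicate 2 gave the lowest value in each of these genes. After LPS the differences were 0.38, 0.20 and 0.03 for *Slfn2*. They were -0.15, -0.92 and -0.27 for *Slfn1*, -0.84, -1.55 and -0.33 for *Slfn4*, and -1.49, -0.05 and -0.05 for *Slfn5*. For *Slfn8* they were -0.32, -0.01 and -0.06, and for *Slfn9* -0.89, -0.22 and -0.16. How many of all genes had same-numbered differences of a single sign was not counted, and the Schlafen genes moved together across arrays.

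Group means ordered the 4 conditions alike in 5 of the 6 genes. From high to low they ran control LPS, *ΔTrsp*M LPS, unstimulated control and unstimulated *ΔTrsp*M, as for *Slfn1* at 10.61 ± 0.37, 10.16 ± 0.40, 5.83 ± 2.54 and 4.37 ± 0.06 (SD, n = 3 arrays). In *Slfn2* the LPS groups changed places, at 13.60 ± 0.10 in *ΔTrsp*M and 13.39 ± 0.27 in control cells. Neighbours in this order that shared a stimulus passed no limma test, and their arrays overlapped except for *Slfn4* after LPS. Without unstimulated control replicate 2 the order of the unstimulated groups turned for *Slfn1*, *Slfn2* and *Slfn4*, as given above. The step from *ΔTrsp*M LPS to unstimulated control crosses genotype and stimulus and was not tested.

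Across the 12 arrays the 6 genes moved together, with Pearson correlations between pairs of 0.778 (*Slfn5* and *Slfn9*) to 0.981 (*Slfn1* and *Slfn8*). These describe 12 arrays that share the split between LPS and no LPS and the array-wide scaling, and they carry no test. Without unstimulated control replicate 2 the correlations of *Slfn9* with the others went from 0.778 to 0.876 up to 0.874 to 0.953. That array was singled out for high values in other Schlafen genes, which *Slfn9* did not share. Leaving it out therefore favoured a rise, which cannot serve as evidence that *Slfn9* moved with them.

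Among 14570 genes whose log2 signal spanned at least 1, the pattern most like each Schlafen gene was sought by Pearson correlation over the same 12 arrays. *Slfn1* was nearest to *Tpst1* (0.997), *Dhx58* (0.996) and *Parp12* (0.994), and *Slfn8* to *Cmpk2* (0.998), *Helz2* (0.997) and *Gbp2* (0.997). *Slfn4* was nearest to *Znfx1* (0.984), *Ifi213* (0.984) and *Creb5* (0.983), and *Slfn5* to *Igsf6* (0.989), *Stat2* (0.986) and *Trim30a* (0.983). *Slfn2* was nearest to *Ebi3* (0.983), *Tnfaip2* (0.973) and *Traf1* (0.972). *Slfn9* was nearest to *Triobp* (0.985), *Mtmr7* (0.982) and *Cenpj* (0.982). *Dhx58*, *Cmpk2*, *Gbp2* and *Trim30a* stood in the list of interferon-stimulated genes, *Stat2* among the signalling genes and *Traf1* among the NF-κB genes. The 3 nearest to *Slfn9* were in none of the lists, and those nearest to *Slfn4* were not among the list genes just named. The correlations share the LPS split and carry no test.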

How the data were processed

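RNA of 12 BMDM cultures was hybridized to GeneChip Mouse 430 2.0 arrays, and groups follow the genotype and LPS labels. Normalization was done by the authors with Expression Console, and the deposited intensity is a linear signal per probe set (45101 in all). Its summarization is not stated in the sources used here, no detection call was used, and the number of arrays limits the precision. Of the sample columns, 0 were left unused. Control probe sets (64) were left out. Of the remaining 45037, 34945 carried 1 gene symbol, 932 several and 9160 none, and the brightest single-symbol probe set stood for each of 18193 genes.

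Signals were quantile-normalized, 16 was added and log2 was taken. Groups were compared with limma 3.58.1 in R 4.3.3 (4 groups in 1 fit, 8 residual degrees of freedom, 6 contrasts), and p-values were adjusted by Benjamini-Hochberg over all genes with a threshold of 0.05. The test was tried on simulated data. Other settings changed the probe set rule, scaling, offset (1 or 64), filter (mean log2 of at least 6), arrays in the fit, variance model, test and arrays left out. Each single array was left out in turn, but unstimulated control replicate 2 was singled out after its values were seen. Leaving out replicate 2 of all groups was also chosen after seeing the data.

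After group means were removed, same-numbered arrays of the groups compared correlated at 0.126 to 0.442 in 12 of 12 pairs (over 0.1 required). On this evidence the numbers were taken as pairs, but only in the fit with replicate as a block. The main fit was unpaired, so its SEs, intervals and p-values leave the pairing out. The labels do not say what a number shares.

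Members, gene lists (204 of 233 genes measured) and tests were chosen with earlier results of these data known. Named genes were the members, up to 3 examples per list with the smallest p, and the 3 most correlated genes per member; *Ifnar1*, *Ifnar2* and *Cd3d* were named outside that rule after their values were seen. Promoter windows are those of RefSeq (GRCm38.p6), matched by symbol for 6 of 6 genes, and were aligned with Biopython 1.88. A comparison of the proteins was not run.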

Additional observations from a re-analysis of the deposited data

How the results depend on the processing

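The rise of all 6 Schlafen genes with LPS kept its direction in both genotypes under every alternative run (312 values, of which 29 lost significance). By the methods' t-test, which uses only the spread of the groups compared, 1 of the 6 passed in control cells after adjustment and 1 at an unadjusted p under 0.01. In *ΔTrsp*M cells 5 passed after adjustment and 6 at an unadjusted p under 0.01. Leaving out single arrays gave 4 to 6 calls in control and 5 to 6 in *ΔTrsp*M cells. The share of all genes called was not counted for the t-test. With single arrays left out it was counted only without unstimulated control replicate 2 (6.62% higher in control cells). These counts do not compare the genotypes. Interferon-stimulated genes higher in control cells went from 31 to 0 by the adjusted and 4 by the unadjusted t-test. Signalling genes higher in control cells went from 7 to 4 with no scaling, 3 by the adjusted and 4 by the unadjusted t-test, and in *ΔTrsp*M cells from 8 to 4 with no scaling; 3 were lower in unstimulated *ΔTrsp*M cells by the unadjusted t-test. The cause was not tested. In the fit with replicate as a block, the Schlafen calls were 6 and 6 for LPS and 0 for each genotype contrast, so it changed no call.

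Genotype differences passed under 0 of the alternatives, and some turned sign. In unstimulated cells, leaving out replicate 2 of all groups gave 0.033 for *Slfn1*, 0.19 for *Slfn2*, 0.61 for *Slfn4* and 0.065 for *Slfn9*, with or without the replicate block. Leaving out single arrays gave -2.22 to 0.008 for *Slfn1*, -0.38 to 0.33 for *Slfn2*, -1.46 to 0.70 for *Slfn4* and -0.26 to 0.10 for *Slfn9*. After LPS and with no scaling the differences reached -1.47 for *Slfn1*, -1.999 for *Slfn4*, -1.37 for *Slfn5*, -0.89 for *Slfn8* and -1.46 for *Slfn9*. With no scaling, *Slfn2* turned to -0.26 after LPS, -0.19 averaged over both stimuli and -0.15 in the interaction, and the *Slfn5* interaction to -0.075. With replicate 2 of all groups left out, with or without the replicate block, the interaction turned to -0.24 for *Slfn1* and -0.18 for *Slfn5*, and the average of *Slfn4* to 0.012. Leaving out single arrays, interactions ran from -0.46 to 1.77 for *Slfn1*, -0.13 to 0.58 for *Slfn2*, -1.60 to 0.55 for *Slfn4*, -0.42 to 1.74 for *Slfn5* and -0.12 to 1.41 for *Slfn8*, and the average of *Slfn2* from -0.087 to 0.27. The fit on only the arrays compared and the t-test gave no value for the average and the interaction.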

Other observations

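*Tmem132e*, a transmembrane protein gene on the same chromosome as the Schlafen cluster, was the flanking gene that differed between genotypes after LPS. Its log2 signal was 6.47, 6.82 and 6.96 in control LPS arrays and 4.65, 4.53 and 4.50 in *ΔTrsp*M LPS arrays, and 4.59 to 5.07 in the unstimulated arrays of both genotypes. The arrays of the other 3 groups read near 4, the floor of a scale on which 16 is added to the signal, so the size of the difference depends on that offset. The *ΔTrsp*M minus control difference after LPS was -2.19 (SE 0.20, limma adjusted p = 0.00226), and the interaction of genotype and LPS was -2.28 (limma adjusted p = 0.0766). The call was lost under 7 of 25 alternatives, over which the adjusted p ran from 0.0042 to 0.857, and the difference from -3.43 with 1 in place of 16 added to -0.44 with the mean of the gene's probe sets. Of the 6 Schlafen genes, 0 differed between genotypes in the same fit.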
